A study of Mus musculus with 7 samples.

Results

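Antisense signals of mouse brain and mouse kidney were compared on the Affymetrix U74B array, an early mouse design on which some probe sets had been laid down in the reverse orientation. A probe set is a group of short oligonucleotides that together read 1 transcript, and a reversed probe set pairs with RNA made from the strand opposite to the annotated gene. All 3041 reverse probe sets listed for U74B entered the comparison, out of 5652 on U74A and U74B together. They came from 2 of the series' 7 arrays, the brain U74B array and the kidney U74B array. The brain group was total RNA of whole dissected mouse brain (8 micrograms labelled), and the kidney group total RNA of dissected mouse kidneys (6.75 micrograms labelled). Both tissues were rinsed in cold buffer and extracted with TRIzol, and neither had a treatment. The labels used here name no strain, age, sex or number of animals. Each tissue had 1 array, so no value has an error between animals and no p-value is given; with so few arrays the precision of every ratio is limited and cannot be stated. In whole tissue, fewer cells of a type and less RNA per cell cannot be told apart.

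Natural antisense transcripts are RNAs made from the strand opposite to a known gene. They can start at a promoter shared with the gene and run away from it, overlap the end of a neighbouring gene that points the other way, or lie inside an intron. Some of them act on the gene they face, by pairing with its RNA or through transcription across it, and many are made in a tissue-specific manner; brain is known for a rich set of them. The tissues themselves were checked on the sense arrays of the series. The synaptic genes Syt1 and Snap25 read 8559.8 and 4170 in brain against 27.4 and 0.2 in kidney, while the tubule genes Umod and Slc34a1 read 7093.2 and 4768.3 in kidney against 17 and 62.5 in brain.

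The values are linear intensities from Affymetrix's MAS5 algorithm, here called signals. Reverse signals had a median of 36.8 in brain and 42.2 in kidney, with the 75th percentile 98.5 and 92.7, and the highest 4537.8 and 3945.1. A floor was set at the higher 75th percentile, 98.5, because no detection calls were used. Signals under the floor were raised to it, and a probe set was called for the tissue in which it was then 2-fold or more higher. Where the weaker tissue had been raised in this way, the fold is a lower bound and is given as "at least". The percentile of a signal is its rank among the 3041 reverse probe sets of its own array, and does not depend on the scaling of the arrays.

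Of the 3041 reverse probe sets, 141 (4.64%) were called higher in brain and 63 (2.07%) higher in kidney. Among the 983 above the floor these were 14.3% and 6.41%, and 779 were called for neither tissue. The 983 comprised 478 above the floor in both tissues, 283 in brain alone and 222 in kidney alone. The median fold was 2.42 among brain calls and 2.62 among kidney calls, and 14 and 10 of them reached 4-fold. By rank, the brain percentile minus the kidney percentile had a median of 11.97 points for brain calls and -23.9 points for kidney calls. Of the 141 brain calls, 83 were above the floor in both tissues, and of the 63 kidney calls 28. The rank gaps were thus not compared at like brightness. The 6 brain calls nearest to the threshold lay between 2.003-fold and 2.02-fold and the 6 probe sets just outside it between 1.98-fold and 1.998-fold. On the kidney side the nearest 6 lay between 2.01-fold and 2.08-fold, and the 6 outside between 1.98-fold and 1.997-fold.

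The balance between the tissues depended on how the arrays were scaled. As deposited, brain calls outnumbered kidney calls by 141 to 63. The arrays gave 113 and 83 when brought to the same 2% trimmed mean, 101 and 85 when centred on the brighter probe sets, and 79 and 102 with quantile normalization. Centring on all 3041 probe sets gave 154 and 56. The tilt also varied with brightness. Among the 365 probe sets with a mean percentile between 50 and 60 the median log2 ratio of brain over kidney, taken without the floor, was -0.08, and among the 233 in the top bin, from 90 to 100, it was 0.45. The median floored log2 ratio over all 983 was 0.20 as deposited, 0.07 after centring on the brighter probe sets and 0.01 with quantile normalization. The order of the counts thus turned with quantile normalization. Of the single calls, 79 of the 141 in brain and 56 of the 63 in kidney held under all 4 other scalings. These held calls covered 44 and 28 named genes. The trimmed mean, centring on the brighter probe sets and quantile normalization lowered the brain side, and each kept all 63 kidney calls. Only centring on all probe sets lowered the kidney side, so the other scalings were no check on the kidney calls.

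Of the 3041 probe sets, 1763 carried 1 gene symbol, 66 several and 1212 none. The named ones stand for 1604 genes, of which 78 had a brain call and 32 a kidney call. A wide kidney difference among them belonged to Rbm47, an RNA-binding protein of epithelia that takes part in splicing and RNA editing. Its reverse probe set read 19 in brain, at percentile 35.1, and 1283.1 in kidney, at percentile 99.6. This is at least 13.03-fold, and the call held under all scalings and floors tried. RefSeq annotates a long noncoding RNA, Gm26725, on the opposite strand, with a start 26 bases upstream of a start of Rbm47 and facing away from it. No sense probe set of Gm26725 was matched, so its own level was not measured here.

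Starts that face away from each other, with promoter windows that overlap, were annotated for 15 of the called genes. Among genes of known strand these were 20% of the brain-called and 14.8% of the kidney-called. The shares were close to this among genes above the floor and called for neither (16.7%) and below the floor (17.5%). The windows of 3 of them are shown as examples in which the window holds both starts; they were chosen after their values were seen. Each runs from 250 bases before to 50 bases after the gene's annotated start, on the strand of the gene, 5′ to 3′, and comes from RefSeq on GRCm38.p6. Capitals mark the bases from the opposite-strand start to the start of the gene. Rbm47 lies at chr5:66150929-66151228 on the minus strand, with Gm26725 running the other way. Ndufaf2, an assembly factor of respiratory complex I, lies at chr13:108158576-108158875 on the minus strand, with the DNA repair gene Ercc8 starting 113 bases upstream. Slc1a3, the glutamate transporter of astrocytes, lies at chr15:8710758-8711057 on the minus strand, with Gm31340 starting 219 bases upstream.
Rbm47: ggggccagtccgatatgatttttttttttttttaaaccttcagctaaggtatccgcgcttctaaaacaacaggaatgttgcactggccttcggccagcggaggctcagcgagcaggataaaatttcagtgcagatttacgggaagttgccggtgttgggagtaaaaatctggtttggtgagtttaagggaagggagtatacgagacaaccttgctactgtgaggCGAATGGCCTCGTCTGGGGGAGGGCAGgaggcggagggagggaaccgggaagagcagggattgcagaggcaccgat
Ndufaf2: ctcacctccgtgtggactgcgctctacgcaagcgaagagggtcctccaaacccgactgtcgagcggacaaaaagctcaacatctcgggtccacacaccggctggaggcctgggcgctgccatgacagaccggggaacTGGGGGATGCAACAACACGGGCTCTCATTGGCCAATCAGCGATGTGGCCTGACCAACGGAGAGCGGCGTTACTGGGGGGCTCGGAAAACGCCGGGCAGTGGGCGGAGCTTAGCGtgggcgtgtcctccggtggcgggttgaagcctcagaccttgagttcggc
Slc1a3: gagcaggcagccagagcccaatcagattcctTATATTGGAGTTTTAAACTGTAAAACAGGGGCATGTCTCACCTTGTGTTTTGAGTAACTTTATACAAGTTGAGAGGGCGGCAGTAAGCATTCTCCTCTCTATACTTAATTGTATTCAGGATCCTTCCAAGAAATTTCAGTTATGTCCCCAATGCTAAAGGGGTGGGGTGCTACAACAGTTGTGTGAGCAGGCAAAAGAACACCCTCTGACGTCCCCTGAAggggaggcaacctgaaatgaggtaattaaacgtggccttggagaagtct
The windows differ in base composition, with 51.7% G and C for Rbm47, 63.7% for Ndufaf2 and 45.3% for Slc1a3. The array does not place the reverse probes within the gene in the files used here, so the windows show annotation and not a measured start. Gm26725 was annotated as overlapping Rbm47, while Ercc8 and Gm31340 were not annotated as overlapping their partners.

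Other kidney differences fell on genes of varied functions. Acot2, a thioesterase of mitochondria that cleaves acyl-CoA, had a pair of reverse probe sets, which read 1391.6 and 1330.5 in kidney and 212.2 and 209.2 in brain. They were designed on the same sequence record and are not independent readings. Acot1, the cytosolic enzyme of the same family, read 206.9 in kidney against 10.3 in brain, at least 2.10-fold. Acot1 and Acot2 are close relatives, so which of them a probe set reads is uncertain. Sostdc1, a secreted antagonist of BMP and Wnt signals, read 534.1 in kidney and 10.1 in brain, where it stood at percentile 21.3 of its array against 98.7 in kidney. Tmprss2, a serine protease of epithelial membranes, read 277.3 against 6.1, at least 2.82-fold, with percentiles of 95.5 and 12.4. Slc25a13, the mitochondrial aspartate and glutamate carrier, read 255.1 against 17.5, and Chmp1b, a subunit of the ESCRT-III membrane scission machinery, 234.7 against 23.3. In these 4 genes the brain signal was far under the floor, so the fold is a lower bound set by the floor.

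In further kidney calls the brain signal was near or above the floor. Ndufs7, a subunit of complex I, read 471.7 in kidney and 128.5 in brain, 3.67-fold. Smap1, an Arf GTPase-activating protein of endocytosis, read 412.2 and 115.1, and Mex3c, an RNA-binding ubiquitin ligase, 339.7 and 107.4. Caprin1, an RNA-binding protein of stress granules, read 265.7 and 100.2, and Tmbim4, a membrane protein of the Golgi, 278.6 and 105.4. All 5 were called in kidney under every scaling tried, of which only centring on all probe sets lowered the kidney side. Of these genes only Ndufs7 was still called when the 90th percentile served as the floor. Tm9sf2 (489.9 in kidney and 76 in brain), the lysosomal peptidase Tpp1 (491.8 and 92), the Wnt receptor Fzd7 (319.5 and 78.7) and Fancl, the ubiquitin ligase of the Fanconi anaemia pathway (284 and 84.6), had brain signals just under the floor. Nxt2, a cofactor of mRNA export, read 394.9 and 20.9, so its brain signal was far under the floor. Gng2, a gamma subunit of heterotrimeric G proteins, was among the brightest probe sets of both arrays, at 2980.7 in kidney and 1250.5 in brain, 2.38-fold. Its ranks, at percentile 99.97 and 99.6, hardly differed.

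In brain, a wide difference belonged to 6430520M22Rik, which had signals of 853.7 (percentile 99.1) and 6.2 (percentile 7.79) in brain and kidney. Several of the other genes are neuronal. Basp1, a membrane protein of growth cones, read 3106.4 in brain and 482.2 in kidney, 6.44-fold, although it ranked high on both arrays (percentiles 99.9 and 98.3). Cdk5r1, which switches on the kinase Cdk5 in neurons, read 628.5 against 43.2. Rit2, a Ras-like GTPase of neurons, read 410.8 against 2.7, at least 4.17-fold, and stood at percentile 96.5 in brain and 2.14 in kidney. Slitrk1, a synaptic adhesion protein, read 385.3 against 56.2, and Gpm6a, a membrane glycoprotein of neurites, 290.3 against 82. Apart from Basp1, the kidney signals of these genes were under the floor.

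The other genes among the 20 named for brain have varied functions. Luc7l3, a splicing factor of the U1 complex, read 470 against 4.9 in kidney, at least 4.77-fold. Sfi1, a centrosomal protein, read 554 and 112, and Taz, the cardiolipin-remodelling enzyme tafazzin, 590.9 and 152.4, 3.88-fold. Prrc2b, a protein of translation initiation, read 676.9 and 178.2, and Gnl3l, a nucleolar GTPase, 1679.9 and 539.7. Akap8, a nuclear anchor of protein kinase A, read 338.7 and 42.8, and Pgs1, an enzyme of cardiolipin synthesis, 330.7 and 71.2. Baz2b, a bromodomain protein, read 358.4 and 114.7, and Cnppd1 786.4 and 264.4. The ubiquitin ligase Arel1 read 292.4 and 55.6, and the testis transcription factor Spz1 302.3 and 95.2. All of these held under every scaling tried. With the 90th percentile as the floor, Luc7l3, Sfi1, Taz, Prrc2b, Gnl3l and Cnppd1 were still called, while Akap8, Pgs1, Baz2b, Arel1 and Spz1 were not.

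Some probe sets were bright in both tissues and under 1.5-fold apart. The part of probe binding strength in these signals was not tested. The 8 with the highest mean percentile belonged to Gpx8, Wdr12, Dis3l2, Megf6, Smarca5, Sec62, Pkmyt1 and Reep3. Other reverse probe sets of Wdr12 and Dis3l2 were under the floor in both tissues. Another probe set of Sec62 was called in kidney (159.4 in brain and 378.2 in kidney). Gpx8, a peroxidase of the endoplasmic reticulum, read 848.8 in brain and 821.2 in kidney, and Wdr12, a factor of ribosome assembly, 1083.2 and 753. Dis3l2, an RNA-degrading exonuclease, read 829.6 and 605.7, and Smarca5, a chromatin-remodelling ATPase, 540.4 and 672. Of the brightest 10% of the reverse probe sets of each array (306 in brain, 305 in kidney), 174 were shared. These were 56.9% of the brain list and 57.0% of the kidney list. Over all 3041 probe sets the Spearman correlation of the signals was 0.66, a description across probe sets that share their oligonucleotides on both arrays.

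The gene lists were small on this array, so they are given as counts beside all named probe sets. They were drawn up by patterns in gene symbols, so some members belong by name only. Examples are Srpk2 in the secretory list, Itgb3bp in the adhesion list, Slc7a6os among solute carriers and Zdhhc4 among zinc finger proteins. Of the 590 probe sets with 1 symbol above the floor, 80 (13.6%) were called in brain and 33 (5.59%) in kidney, and the log2 ratio had a median of 0.20. Of 10 above the floor in the list of neurons and synapses, 6 were called in brain and none in kidney, with a median of 1.11. The 6 were Basp1, Cdk5r1, the synaptic vesicle protein Sv2a (304.1 in brain and 59.4 in kidney), the RNA-binding protein Celf4 (322.5 and 144), the metabotropic glutamate receptor Grm3 (218.2 and 23.2) and the axonal adhesion protein Cntn1 (208.5 and 3.6). Under the other scalings between 4 and 6 of the 10 were called, and the median lay between 0.94 and 1.11. Of the 4 others, the second probe set of Celf4 lay on the brain side (157.5 and 5.3, log2 ratio 0.68) and 3 on the kidney side: Rbfox2, a splicing regulator, read 96 in brain and 121.2 in kidney, the glutamate receptor subunit Gria3 96.8 and 130, and the calcium-binding protein Calb1, of neurons and of the distal tubule, 3.8 and 168.9. The only astrocyte probe set above the floor was that of Slc1a3 (267.1 and 22). No oligodendrocyte probe set was above it, with highest signals of 87 in brain and 29.3 in kidney over 3 genes, and no microglial or endothelial list gene had a reverse probe set here.

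Kidney cell types were almost unrepresented. The proximal tubule list had 1 member, Amn, a partner of the endocytic receptor cubilin, at 114.3 in kidney and 18.4 in brain, under 2-fold after the floor. Of 4 distal nephron genes, Sostdc1 and Calb1 were above the floor and Sostdc1 was called. The podocyte gene with a reverse probe set stayed at or below 47.3. All 3 probe sets of fatty acid oxidation and acyl-CoA enzymes above the floor were called in kidney, those of Acot1 and Acot2 described above. In the respiratory chain list both probe sets of Ndufaf2 were called in brain (1293.7 against 213.1 and 198.8 against 94.9) and that of Ndufs7 in kidney. All 3 mitochondrial ribosome and import probe sets above the floor were under 2-fold.

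Splicing and other RNA-binding proteins had 5 brain and 2 kidney calls of 17 above the floor (median 0.53). They included Luc7l3, Celf4 and Rbm7, a subunit of the nuclear exosome's targeting complex (270.4 and 120.5), in brain, and Rbm47 and the helicase Dhx38 (205.9 in kidney and 102.5 in brain) in kidney. Centred on the brighter probe sets, this list gave 1 and 2. Chromatin and histone proteins had 4 brain calls and none in kidney of 11 (median 0.43): Baz2b, Phf10, a subunit of a chromatin-remodelling complex (383.7 and 173.7), the arginine methyltransferase Prmt7 (3643.5 and 1801.8) and the histone methyltransferase Nsd3 (248.4 and 124). With that centring only Baz2b was left. Zinc finger proteins had 3 and none of 11, Zbtb7a (1868.9 and 779.3), Zfp207 (382 and 165.9) and Zfp428 (1141.9 and 516.1). Ubiquitin and proteasome genes had 3 and none of 21, the ligases Wwp1 (513.3 and 194.5) and Rnf185 (293.8 and 126.8) and the scaffold Cul3 (243 and 107.2), with 18 under 2-fold and a median of 0.17. With quantile normalization these lists gave 1 and 1 (zinc finger) and 1 and 1 (ubiquitin).

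Secretory and vesicle transport genes had 1 brain call, Rab17 (409 and 202.3), and 2 kidney calls, Tm9sf2 and Sec62, of 14 above the floor. The G protein and small GTPase list had 2 in each direction of 12: Rit2 and Rap2b (351.2 and 162.4) in brain, Gng2 and Rhobtb1 (214.8 in kidney and 41.8 in brain) in kidney. Of 4 developmental factors above the floor, Hoxc5 (376.8 and 80.3) and the retinoic acid receptor Rara (880.4 and 363.4) were called in brain. Of 4 ion channel and pump probe sets, the calcium sensor Stim2 (269 and 90.6) and Tmc5 (333.1 and 166.3) were. Chaperones had 2 brain calls of 8, Ppil2 (345.3 and 144.2) and Dnaja4 (199.6 and 66.7), and protein kinases 2 of 12, the kinase Stk38l (198.9 and 16.5) and Cdk5r1, which the list holds as a kinase activator. The calcineurin subunit Ppp3ca (224.9 and 96.9) and the inositol phosphatase Ocrl (247.4 in kidney and 118.7 in brain) were the phosphatase calls, and Epb41l3, a membrane skeleton protein (224.6 and 95.6), the cytoskeletal one. Becn1, an autophagy protein, read 528 in brain and 214.4 in kidney. The cell cycle and DNA repair list had no brain call and 1 kidney call, Fancl, of 8 (median -0.16). Lysosome and autophagy had Becn1 in brain and Tpp1 in kidney of 4, and solute carriers Slc1a3 in brain and Slc25a13 in kidney of 9. Neither of the 2 translation probe sets above the floor was called (median -0.08), nor was Plagl1, an imprinted zinc finger gene (51.1 in brain and 108.4 in kidney). The lists of cytosolic ribosomal proteins, of other tissues and of expression standards had no probe set above the floor. None of 11 Tmem probe sets and 5 adhesion and matrix probe sets above the floor was called in either tissue. Tmc5, Stk38l, Rab17, Prmt7, Dnaja4 and Rap2b lay close to 2-fold and were called under none of the scalings that lowered the brain side. Ppil2 and Becn1 fell under 2-fold with quantile normalization, and Ocrl with centring on all probe sets.

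Several probe sets of the same gene could be compared within the same pair of arrays. For 17 genes, 2 or more reverse probe sets were above the floor, and their log2 ratios differed by a pooled SD of 0.71. In 3 genes (Acot2, Bspry and Ndufaf2) both were called the same way, in 5 only 1 was called, in 9 none, and in none were they called in opposite tissues. The 3 that were called alike each rest on 1 sequence record. The probe sets that parted were those of Sec62, a subunit of protein translocation (159.4 in brain and 378.2 in kidney on one, 498.6 and 461.1 on the other), Prmt7 (3643.5 and 1801.8, then 20.3 and 136.4) and Wwp1 (513.3 and 194.5, then 98.9 and 117.4). Olfml2b, a secreted olfactomedin protein (42.6 and 265.6, then 126.3 and 151.5), and Celf4 (322.5 and 144, then 157.5 and 5.3) also had a single called probe set. Among the genes with no call, those of Cdkn2aip lay furthest apart of all 17 genes and on opposite sides (38.8 in brain and 169.7 in kidney, then 194.3 and 43.7). Qpctl (16.6 and 129.6, then 289.6 and 187.5) and 1500011B03Rik (range of the log2 ratio 0.98) also had probe sets on opposite sides. This SD comes from floored ratios on the same arrays and holds no spread between arrays or animals. The comparison also leaves out genes with a single probe set above the floor. Among these, Gng2, Caprin1, Gpm6a, Ppp3ca, Rbm7, Phf10 and 4933417A18Rik have 2 reverse probe sets and Wdr12 has 3. Their other probe sets were under the floor in both tissues, so they did not repeat the signal.

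The U74A array carries other reverse probe sets and gave a reading of the same tissues for few of these genes. On U74A, 28.8% of the probe sets above its floor of 63.5 were called in brain and 3.73% in kidney. Of 64 genes with a reverse probe set on both designs, 8 were above the floor on both, and 3 of these were called on U74B. Luc7l3 was called in brain on both (470 against 4.9 on U74B, 165.1 against 38.2 on U74A). Fam104a read 774.7 against 333.7 on U74B and 105.2 against 53.5 on U74A, higher in brain on both. Sltm, an RNA-binding protein of the nucleus, went the other way: 74.4 in brain and 202.5 in kidney on U74B, and 114.7 and 28.1 on U74A. After the U74A floor, Fam104a and Sltm were under 2-fold there.

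The probe set class moved with the calls. An ID ending in _f_at marks a probe set whose oligonucleotides are shared by a family of sequences, _i_at or _r_at one built with fewer probes or relaxed rules, and plain _at a unique design. The _f_at class made up 26.8% of all reverse probe sets, 27.0% of the brain calls (38) and 46.0% of the kidney calls (29). Plain _at probe sets made up 61.6% of all, 59.6% of the brain calls (84) and 42.9% of the kidney calls (27). The share of _f_at probe sets above the floor, 36.2%, was near that of plain ones, 32.2%. Its part in the kidney calls was not tested. Among the named kidney genes, Acot2, Tpp1, Tm9sf2, Fancl, Caprin1, 4933417A18Rik, Gng2 and Ocrl were read by _f_at probe sets. Rbm47, Sostdc1, Nxt2, Ndufs7, Smap1, Mex3c, Tmbim4, Slc25a13, Chmp1b, Sec62, Rhobtb1, Acot1 and Dhx38 were read by plain ones, and Fzd7, Tmprss2 and Olfml2b by other classes.

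The sense arrays of the series gave a separate reading of the same genes on the annotated strand. Brain and kidney sense were read on different array types, so array type cannot be told apart from tissue there, and sense folds are after centring each pair. Shares were taken over genes with sense above a sense floor in at least 1 tissue. Of 32 kidney-called and 76 brain-called genes with a sense probe set, these were 30 and 66. Over all such genes with a U74B reverse probe set above the floor, 18.1% of 469 had sense at least 2-fold towards brain and 30.1% towards kidney. Of the 30 kidney-called genes with sense above that floor, 16 (53.3%) had more sense in kidney and 1 (3.33%) more in brain. Of the 66 brain-called genes, sense was higher in brain for 22 (33.3%) and in kidney for 11 (16.7%). Among 373 genes called for neither tissue the shares were 16.6% in brain and 30.6% in kidney. The balance of sense calls depended on the scaling of the 430B array, and with it brought to the 430A scale the genes called for neither tissue gave 107 brain and 48 kidney of 364. There the kidney-called genes gave 3 and 12 of 30 and the brain-called genes 28 and 5 of 62. Over genes read on 430A alone the kidney-called gave 1 and 8 of 19, the brain-called 16 and 4 of 36, and the uncalled 27 and 27 of 156.

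For several members both strands were high in the same tissue. The sense probe set of Rbm47 read 1381.1 in kidney and 182.8 in brain, Sostdc1 2999.9 and 45.5, Tmprss2 1105 and 176.3, and Acot1 1458.9 and 53.5. Fzd7 read 709.1 in kidney and 61.2 in brain, Slc25a13 492 and 17.1, and Tm9sf2 5058.2 and 910.8. In brain, sense was high for Cdk5r1 (890.6 against 57.6 in kidney), Basp1 (2603 and 878.5), Rit2 (698.9 and 6.6), Slitrk1 (704.2 and 56.6) and Sv2a (1171.5 and 131). Slc1a3 (3678.8 and 28.8), Gpm6a (3706.7 and 1030.8), Ppp3ca (3099.2 and 319.2) and Epb41l3 (1554.5 and 349.1) followed. The part of sense RNA in the reverse signals was not tested.

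In other members the strands parted. Rab17, an epithelial Rab GTPase, had 2.02-fold more antisense in brain, and its sense probe set read 669.7 in kidney and 48.1 in brain. Rnf185 had antisense higher in brain and sense of 878.7 in kidney against 134.1 in brain. Rbm7 also had antisense higher in brain and read 1402.3 in kidney and 326.5 in brain on the sense strand. These antisense calls were not firm: Rab17 fell under 2-fold under 3 of the 4 other scalings, Rbm7 with centring on the brighter probe sets and with quantile normalization, and Rnf185 with quantile normalization. Firmer brain calls parted too. Ndufaf2 and Zbtb7a held under all scalings and floors tried, and their sense was called in kidney after centring. It read 374.9 in brain and 205.9 in kidney, and 117.3 and 115.2, and was called for neither tissue with 430B on the 430A scale. Cth was a less firm brain call, at a log2 ratio of 1.10, and fell under 2-fold when centred on the brighter probe sets. Its antisense read 229.6 in brain and 106.9 in kidney, and its sense 43.3 and 1865.7. Sltm was the kidney-called gene with sense higher in brain (419.2 against 243.7). Ndufs7 and Tpp1, called in kidney on the antisense strand, were within 2-fold in sense after centring, at 1.08-fold and 1.95-fold. Prrc2b, Taz, Akap8, Baz2b and Cnppd1, called in brain, were within 2-fold in sense as well, also with 430B on the 430A scale.

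RefSeq annotation was then read for genes on the opposite strand. Strand was known for 27025 of 49997 genes, among them 1250 of the 1604 with a reverse probe set. A gene of the opposite strand overlapped 15 of 55 brain-called genes (27.3%), 6 of 27 kidney-called genes (22.2%), 126 of 366 above the floor and called for neither (34.4%) and 247 of 802 below the floor (30.8%). Starts facing away from each other, with overlapping promoter windows, were found for 11 of 55 brain-called genes (20%), 4 of 27 kidney-called (14.8%), 61 of 366 (16.7%) and 140 of 802 (17.5%), and for 2936 of all 27025 genes (10.9%). On starts facing away, called genes were thus near the uncalled ones. On overlap their shares were lower than those of the uncalled genes, a difference that was not tested and rests on 55 and 27 called genes.

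For single pairs the sense arrays read the facing gene itself. Of the 18 pairs of a brain-called gene with an overlapping opposite-strand gene, the facing gene was higher in brain in 3, in kidney in 3 and in neither in 6. It was below the floor in 3 and had no sense probe set in 3. Shox2, a homeobox factor facing Rsrc1, read 402.9 in brain and 12.2 in kidney, while the reverse probe set of Rsrc1 read 533.5 and 229.6. Acad10, an acyl-CoA dehydrogenase whose start lies 53 bases from that of Brap, read 326.2 and 23, and the reverse probe set of Brap 625 and 258.4. The noncoding 4930579G18Rik inside Acin1 read 255.5 and 9.4, with 198.5 and 90.7 for the reverse probe set. The call of Acin1 lay close to 2-fold (log2 ratio 1.01) and was lost when centred on the brighter probe sets. In kidney the pair with both high was 4933417A18Rik and the peroxisomal isomerase Eci3, whose ends overlap: the reverse probe set read 258.2 in kidney and 75.1 in brain, and Eci3 sense 477.5 and 43.2. The genes facing Phf10 (1600012H06Rik, 477.2 in kidney and 115.1 in brain) and one of those facing Acin1 (1700123O20Rik, 685.8 and 154.4) were higher in kidney. The counts moved with the scaling of 430B: on the 430A scale, brain had the higher sense in 5 facing genes and kidney in 2. There Tmem116, facing Adam1b (596.4 in brain and 155.9 in kidney), and 8430429K09Rik, facing Rnf185 (320.4 and 93.9), counted for brain, and D11Wsu47e, facing Fam104a (123.1 and 148.2), no longer for kidney. Ercc8, which starts beside Ndufaf2, read 306.8 in brain and 39.8 in kidney, and Scrn3, whose start lies 60 bases from that of Cir1, 402.3 and 241.5; both were called in brain after centring, as were the reverse probe sets of Ndufaf2 and Cir1 (554.5 and 200.7). Beside Rbm7, called in brain, Gm5617 starts 13 bases away and read 395.8 in kidney and 7.9 in brain. Ercc8, Scrn3 and Gm5617 start beside their partners and were not annotated as overlapping them. Dnase1l1, facing Taz, read 248.8 in kidney and 40.2 in brain and was within 2-fold after the floor.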

How the data were processed

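Per the submitters' processing notes, the authors' deposited intensity values were made with MAS5; its version and the scaling target of U74B are not given in the sources used here. Per the labels, a mask from Affymetrix picked the reverse probe sets of the U74 arrays; probe sequences and detection calls were not used here. Gene names come from the platform annotation held by GEO, and 1741 of 1763 named probe sets matched RefSeq (GRCm38.p6) by gene ID. Signals were compared as deposited, each probe set with itself, with the floor of 98.5 (75th percentile) and a threshold of 2-fold, in Python 3.11.15 with numpy 2.4.6, pandas 2.3.3 and scipy 1.17.1. The sense pairs were centred on the median log2 ratio of probe sets above both medians, 430A (-0.84) and 430B (2.11) separately, with floors of 186.4 and 27.9; a gene was represented by the sense probe set of highest mean percentile. The counting was tested on simulated arrays.

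The members and the 33 gene lists were chosen with earlier results of these data known. The rule for named genes took the 20 largest floored ratios each way, the 8 brightest pairs under 1.5-fold apart, up to 3 called members of each list each way, genes with 2 or more probe sets above the floor of which any was called, and genes called on both U74 designs. Grm3, Cntn1, Nsd3, Cth, the list members under 2-fold, Sltm, Fam104a, Cdkn2aip, Qpctl, 1500011B03Rik, Plagl1 and the genes named for their neighbours were named after their values were seen. Floors at the median and at the 90th percentile, a pseudocount of 16 in place of the floor, 4 other scalings, plain probe sets alone, a 3-fold threshold and a gap of 20 percentile points were tried.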

Additional observations from a re-analysis of the deposited data

How the results depend on the processing

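Brain and kidney calls, 141 and 63 as deposited, became 79 and 102 with quantile normalization, 304 and 235 with the floor at the median, and 45 and 17 with the floor at the 90th percentile. They were 400 and 477 with a pseudocount of 16 and no floor, 84 and 27 on plain probe sets alone, and 33 and 20 at a 3-fold threshold. A gap of 20 percentile points gave 151 and 148, of which 47 and 35 were also 2-fold calls. The median log2 ratio, 0.20, turned to -0.038 with the pseudocount, which takes in the dim probe sets. Of the 33 gene lists, 12 had more brain than kidney calls, 4 with quantile normalization and 6 with the floor at the 90th percentile. The number of called genes with sense higher in the same tissue was 38, and 24 with sense read on 430A alone, which leaves fewer genes; this alternative, centring on all probe sets and the 430A scale for facing genes were chosen after seeing the data. With both U74 pairs centred, 2 of 4 genes lay on the same side, against 2 of 3 as deposited. Of the 43 brain and 24 kidney calls among the named genes, 28 and 24 were called with quantile normalization and 16 and 7 with the floor at the 90th percentile, and none changed direction under the scalings and floors tried. No paired analysis was possible because each tissue has 1 array. There is no replicate to leave out, and signals under about the 75th percentile of an array limit a ratio to a bound.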

Other observations

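Probe sets without a gene symbol held wide differences. The probe set 112127_f_at had signals of 1311.7 in kidney and 50.5 in brain, a kidney excess of at least 13.3-fold, and 108595_f_at 1265.2 and 151.7, 8.34-fold. In brain, 116851_at read 614.9 against 93.1 in kidney, at least 6.24-fold, and 106347_f_at read 456.6 against 3.6, at least 4.64-fold. Of the brain calls 57 had no symbol and 4 had several, and of the kidney calls 28 and 2, so that 56.7% and 52.4% of the calls carried 1 symbol, against 58.0% of all reverse probe sets.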
